A study of Mus musculus with 703 samples.

Results

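Leucine, isoleucine and valine are the branched-chain amino acids, and the 10 genes described here code for enzymes that break them down in mitochondria, with a kinase that restrains the pathway. They were chosen by name, as the rows of the deposited count table with the symbols Bcat2, Bckdha, Bckdhb, Dbt, Bckdk, Ivd, Mccc1, Mccc2, Hibch and Hibadh. Those are 10 of 19088 genes in the table, and all 10 passed the filter on low counts in each comparison. Over all animals, 8 of the 10 genes were called lower with metformin and 0 higher, where 16.2% of all genes tested were called and 9.21% were called lower. In untreated animals, 3 were higher and 5 lower on the diet with more fat, where 18.4% of all genes were called. The libraries fall into 2 ranges of sequencing identifiers. Within the range of 544 libraries, 9 of the 10 were called lower with metformin, where 19.3% of all genes were called. Within the range of 159 libraries, 0 of the 10 and 0 of all 17740 genes (0%) were called, so that count is the background and not a result about these genes.

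The data are bulk RNA-seq of gastrocnemius, a calf muscle, in 703 libraries from mice of 20 CC-RIX strains. A CC-RIX mouse has parents from different Collaborative Cross lines, each an inbred mosaic of the same founder genomes, so every animal was an F1, and the labels give the genotype as outbred and name no engineered allele. From 6 weeks of age the animals ate a diet labelled 10% fat + fiber or 44% fat + fiber. Metformin, a drug given for type 2 diabetes, was put in the drinking water (5 mg/mL) once mice had reached 7 months.

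The 469 untreated animals were 236 females and 233 males, with 234 animals on 10% fat and 235 on 44% fat. Of the 234 animals on metformin, 57 females and 59 males ate 10% fat, and 59 of each sex ate 44% fat. The study had cohorts of 6 and 12 months, and the labels used here give no age. All treated animals must come from the older cohort, but an untreated animal may come from either, and metformin and age cannot be told apart in these libraries. The sequencing identifiers in the labels fall into a lower range of 544 libraries (400 untreated and 144 with metformin) and an upper range of 159 (69 and 90). The strain (CC009/UncJ x CC013/GeniUncJ)F1 was in the upper range alone.

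Branched-chain amino acids differ from most others in that muscle, more than liver, starts their breakdown. The mitochondrial aminotransferase Bcat2 removes the amino group in a reversible step, and the resulting 2-oxoacids are committed to breakdown by the branched-chain 2-oxoacid dehydrogenase complex. In that complex Bckdha and Bckdhb form the E1 component, Dbt is the E2 core and Dld is an E3 component shared with other dehydrogenases. Bckdk phosphorylates Bckdha and so switches the complex off, and the phosphatase Ppm1k reverses this. Further on, Ivd and the carboxylase made of Mccc1 and Mccc2 act on leucine, and Hibch and Hibadh act on valine.

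The genes lie apart in the mouse genome (positions of the deposited annotation, read as GRCm38). Bcat2 (ENSMUSG00000030826) is at chr7:45570153-45589699, Bckdha (ENSMUSG00000060376) at chr7:25629946-25658981 and Bckdk (ENSMUSG00000030802) at chr7:127904082-127910221. The other subunits of the complex are Bckdhb (ENSMUSG00000032263) at chr9:83925145-84124240 and Dbt (ENSMUSG00000000340) at chr3:116513070-116549981. The leucine genes are Ivd (ENSMUSG00000027332) at chr2:118861954-118882909, Mccc1 (ENSMUSG00000027709) at chr3:35959312-36000678 and Mccc2 (ENSMUSG00000021646) at chr13:99948533-100015639. The valine genes are Hibch (ENSMUSG00000041426) at chr1:52844929-52920986 and Hibadh (ENSMUSG00000029776) at chr6:52546228-52640389. Bckdha, Mccc1, Mccc2 and Hibadh lie on the minus strand and the others on the plus strand. For Bcat2 and Mccc2 the deposited start and end differ from those in GENCODE M21, and for the other 8 genes they are equal.

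RefSeq (GRCm38.p6) gave 11 promoters for 9 of the 10 genes, each taken as the 250 bases before a transcription start, and Dbt had no entry. Promoters of 3 members are shown because these genes hold different places in the pathway and behaved differently below: the aminotransferase, an E1 subunit and the kinase. They are at chr7:45569903-45570152 for Bcat2, chr9:83924887-83925136 for Bckdhb and chr7:127903823-127904072 for Bckdk, all on the plus strand and written 5′ to 3′. Capitals mark each match, on both strands, to the GC box, which was searched as GGGCGG. They also mark the CCAAT box and, as TATAAA, the element of that name.
Bcat2: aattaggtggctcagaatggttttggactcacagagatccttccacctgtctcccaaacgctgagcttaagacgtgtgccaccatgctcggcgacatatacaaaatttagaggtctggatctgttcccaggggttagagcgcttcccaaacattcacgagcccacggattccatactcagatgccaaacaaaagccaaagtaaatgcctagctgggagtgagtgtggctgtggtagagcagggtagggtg
Bckdhb: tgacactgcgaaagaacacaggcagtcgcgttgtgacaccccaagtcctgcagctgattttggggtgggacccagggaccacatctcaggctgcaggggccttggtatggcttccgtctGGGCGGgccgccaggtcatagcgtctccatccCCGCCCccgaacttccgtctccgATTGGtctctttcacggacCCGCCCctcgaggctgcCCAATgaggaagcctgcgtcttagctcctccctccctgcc
Bckdk: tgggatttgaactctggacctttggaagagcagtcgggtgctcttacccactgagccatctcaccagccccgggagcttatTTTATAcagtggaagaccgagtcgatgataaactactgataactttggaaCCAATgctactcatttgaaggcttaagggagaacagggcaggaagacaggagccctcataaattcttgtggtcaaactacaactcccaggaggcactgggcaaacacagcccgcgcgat
The Bckdhb promoter shown held 3 GC boxes and 2 CCAAT boxes, that of Bckdk a CCAAT box and a TATA box, and that of Bcat2 no match. A second promoter of Bckdhb, at chr9:83948531-83948780, and a second of Bcat2, at chr7:45571029-45571278, held no match. CCAAT was found for 6 of the 9 genes (Ivd, Mccc1, Mccc2, Hibadh, Bckdk and Bckdhb), in 6 of the 11 promoters, and in 33.8% of 32851 RefSeq promoters. GGGCGG was found for 4 genes (Hibch, Mccc1, Hibadh and Bckdhb), in 4 of the 11 promoters, and in 32.7% of RefSeq promoters. CACGTG, an E-box, was found for Mccc2 and in 6.02% of promoters, and TATAAA for Bckdk and in 12.4%. Neither TNAAGGTCA, the element of estrogen-related receptors, nor GCGCATGC, the NRF1 core, was found in these windows, against 1.14% and 2.26% of promoters.

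Libraries held 27.4M to 96.1M counts. The muscle label was checked against fibre markers, and the median of Acta1, the actin of skeletal muscle, was 21630 CPM (counts of a gene in each 1M counts of a library). The level of Xist went against the sex label in 15 libraries and the profile was closest to another strain in 4, which makes 19 libraries in doubt. Summed hepatocyte markers had a median of 2.66 CPM in untreated animals, reached 6403 CPM in the highest library, and were higher in the upper identifier range (medians of 8.82 against 2.22 CPM in untreated animals). No library equalled another. Each result with a call was recomputed without the 19 libraries, and the calls that changed are named beside the result. In bulk muscle, fewer cells of a type and less RNA per cell cannot be told apart.

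Per kilobase of the main transcript, Hibadh (46.3 CPM per kb), Bckdha (39.2) and Bckdk (28.7) had the highest mean levels over all 703 libraries. Ivd (18.3), Bcat2 (16.5), Hibch (16.1) and Bckdhb (12.3) followed, and Mccc1 (9.51), Mccc2 (7.88) and Dbt (7.65) were lowest on this scale. The length used matters for this order. When all annotated exons were counted, Hibadh was in rank 5, Dbt in rank 6 and Mccc1 lowest (2.13 CPM per kb). Bckdha and Bckdk were among the highest 3 by both lengths.

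Metformin was compared with no treatment over all 703 animals, with strain, sex, diet and identifier range in the model (edgeR's quasi-likelihood F test, adjusted by Benjamini and Hochberg over 17740 genes, called at an adjusted p under 0.05). All 10 genes had a difference below 0, and 8 of 10 were called, all lower with metformin. Over all genes tested, 16.2% were called, and 9.21% were called lower. The median log2 difference was -0.092 for the 10 genes and -0.0023 for all genes. Ivd, a dehydrogenase further on in leucine breakdown, and the aminotransferase Bcat2 had the lowest values.

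Levels of Bcat2, the enzyme of the first step, spanned 15.5 to 56.7 CPM with a median of 29.9 in 469 untreated animals, and 12.4 to 54.7 CPM with a median of 26.6 in 234 animals given metformin. The groups overlapped over nearly their whole range, with 72.2% of treated animals below the untreated median. The fitted log2 difference was -0.15 ± 0.019 (SE), a change in level of -10.1%, with an adjusted p of 5.3e-12.

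In the dehydrogenase complex, Bckdha ranged from 42.1 to 126 CPM (median 76.6) without metformin and from 42.5 to 111.3 CPM (median 68.98) with it, and its log2 difference was -0.12 ± 0.016 (adjusted p 6.2e-11). Bckdhb, the other E1 subunit, ranged from 9.50 to 34.1 CPM (median 18.2) and from 9.76 to 33.97 CPM (median 16.01), with a log2 difference of -0.15 ± 0.016 (adjusted p 5.7e-16). Dbt ranged from 10.7 to 45.3 CPM (median 25.9) and from 11.8 to 37.1 CPM (median 23.1), with a log2 difference of -0.12 ± 0.019 (adjusted p 1.4e-07). All 3 subunits were lower with metformin, and treated and untreated animals overlapped for each. The kinase Bckdk differed less, with medians of 96.97 CPM untreated and 94.4 CPM treated and a log2 difference of -0.035 ± 0.012 (adjusted p 0.024). That call did not survive without the 19 libraries in doubt (adjusted p 0.055).

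Among the leucine genes, Ivd ranged from 42.04 to 103.2 CPM (median 69.7) in untreated animals and from 37.3 to 90.8 CPM (median 61.4) with metformin. Its log2 difference of -0.15 ± 0.015 had the lowest adjusted p of the 10 genes (4.9e-20), and 188 of 234 treated animals (80.3%) lay below the untreated median. The carboxylase subunits differed less. Mccc2 had medians of 17.03 and 16.1 CPM and a log2 difference of -0.055 ± 0.015 (adjusted p 0.0033). Mccc1 had medians of 23.5 and 22.4 CPM and a log2 difference of -0.027 ± 0.012, which did not pass (adjusted p 0.088).

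The valine genes were split. Hibadh, which oxidises 3-hydroxyisobutyrate, had medians of 84.9 CPM untreated and 81.8 CPM with metformin and a log2 difference of -0.066 ± 0.010 (adjusted p 1.1e-07). Hibch, the hydrolase before it, had medians of 29.3 and 28.8 CPM and a difference of -0.027 ± 0.011 that did not pass (adjusted p 0.087).

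**Figure D1:**
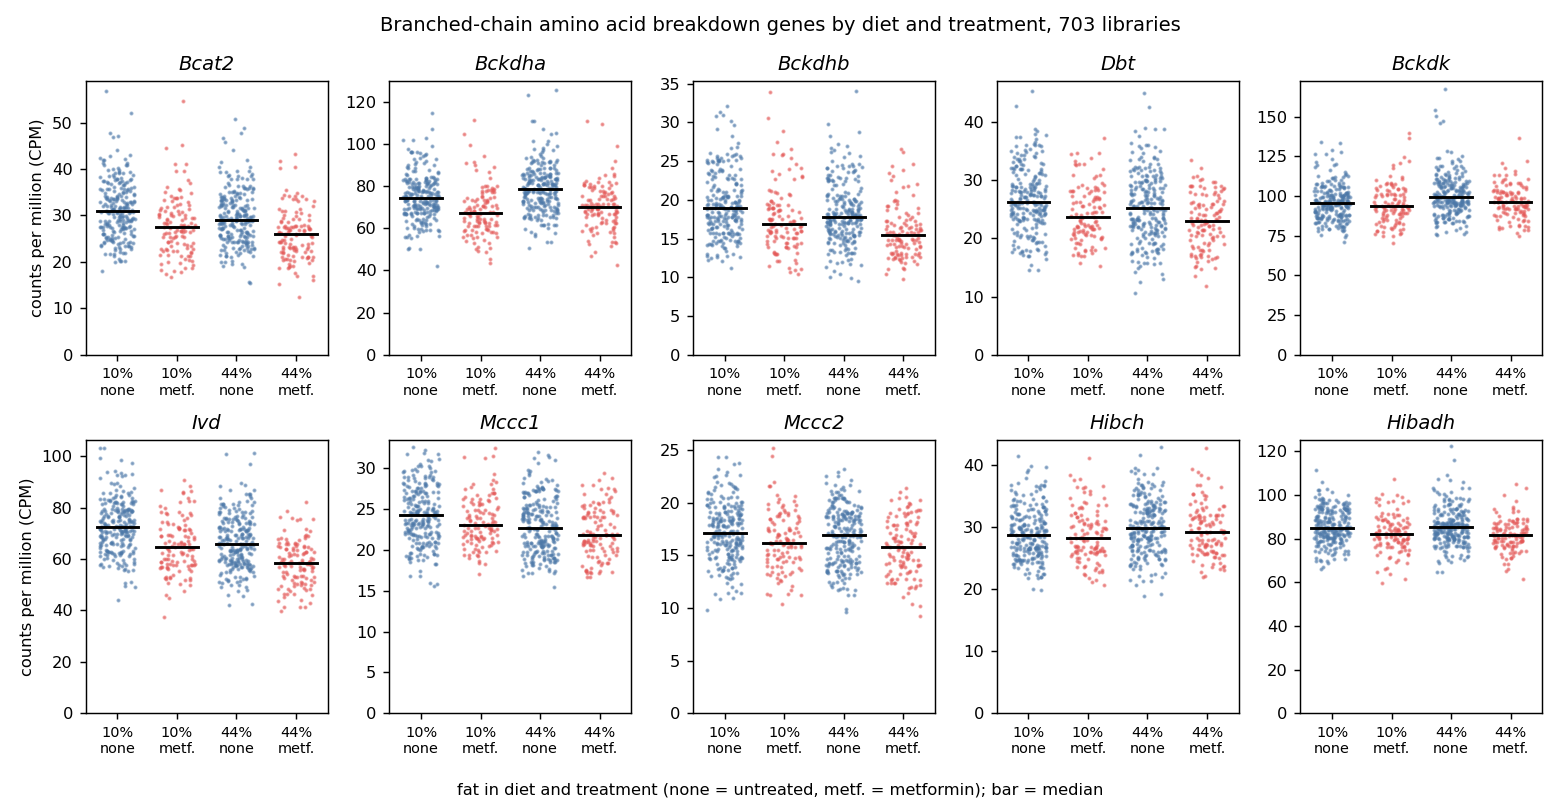
Level of each of the 10 genes in CPM (vertical axis, from 0) by fat in the diet and treatment. Points are the 703 libraries and bars are group medians, which for Ivd run from 72.6 CPM on 10% fat untreated to 58.7 CPM on 44% fat with metformin, and the libraries of the 4 groups overlap for every gene.

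Markers of other cell types were read beside these results. The 7 slow fibre markers had medians of 1727 CPM (488 to 4249) untreated and 1769 CPM (592 to 4094) treated, with 0 of 7 called. The 7 adipocyte markers had medians of 1232 CPM (461 to 2932) and 1158 CPM (566 to 2471), with 2 of 7 called lower, and the 6 fibroblast markers 717 CPM (175 to 3904) and 615 CPM (347 to 1400), with 3 of 6 called lower. Of 6 endothelial markers, 1 was higher and 2 were lower, of 5 Schwann cell markers 2 were lower, and of 8 skeletal muscle fibre markers 2 were higher and 1 was lower. Of 7 hepatocyte, 6 macrophage and 5 erythroid markers, 0 were called. The adipocyte sum is mostly Car3, which muscle also expresses (median 1126 CPM, against 3.25 to 31.5 CPM for each of the other 6). A fit was therefore added after the data were seen, in which the mean log2 level of the slow fibre, adipocyte (without Car3), hepatocyte, fibroblast and endothelial lists entered as covariates. In that fit 8 of the 10 genes were called lower with metformin, with Ivd at -0.16 ± 0.015 and Bckdk at -0.045 ± 0.011 (adjusted p 0.00093), and Mccc1 (adjusted p 0.097) and Hibch (0.07) did not pass. The share of all genes called in that fit was not counted, so the count has no background beside it.

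Treatment was then read on each diet. On 10% fat, 6 of the 10 genes were called, all lower with metformin (6.8% of all genes called): Bcat2 (log2 difference -0.13 ± 0.027), Bckdha (-0.10 ± 0.022), Bckdhb (-0.11 ± 0.022), Dbt (-0.10 ± 0.026), Ivd (-0.14 ± 0.021) and Hibadh (-0.061 ± 0.015). On 44% fat, 8 were called, again all lower (6.81% of all genes called), with Bckdk (-0.055 ± 0.016) and Mccc2 (-0.065 ± 0.020) joining the same 6. The largest differences on 44% fat were those of Bckdhb (-0.18 ± 0.022), Bcat2 (-0.17 ± 0.026) and Ivd (-0.17 ± 0.020).

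The difference between the diets was tested itself. All 10 genes had a more negative metformin difference on 44% fat, but these genes vary together and their signs are not separate observations. The median interaction was -0.026 for the 10 genes and -0.0041 for all genes. It was called for 0 of 10 (edgeR, with 0.00564% of all genes called). At an unadjusted p under 0.05, 1 of the 10 and 1325 of all 17740 genes passed. Of the 10, the gene that passed was Bckdhb, at -0.072 ± 0.030 (95% interval -0.13 to -0.013, adjusted p 0.54). For Ivd the interval of the interaction ran from -0.081 to 0.027 and for Bcat2 from -0.11 to 0.032. Effects of diet on the metformin difference within these intervals were not detectable here.

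The mean level of Ivd shows the 4 combinations side by side. It was 72.9 ± 10.3 CPM (SD, n = 234) on 10% fat and 66.7 ± 10.5 (n = 235) on 44% fat without metformin, and 65.3 ± 10.4 and 58.5 ± 8.83 with it. The lowest group was the one with both 44% fat and metformin. Bckdha did not follow this order: its means were 74.99 ± 10.9 and 78.96 ± 11.5 CPM untreated and 68.2 ± 11.8 and 70.4 ± 10.9 CPM with metformin, highest in untreated animals on 44% fat.

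The identifier ranges were compared next, since they hold unequal shares of treated animals. Within the lower range, 9 of the 10 genes were called lower with metformin (19.3% of all genes called, 11.2% called lower), with Ivd at -0.17 ± 0.017, Bckdhb at -0.17 ± 0.019, Bcat2 at -0.16 ± 0.023 and Mccc1 at -0.041 ± 0.014 on the log2 scale. Hibch missed the threshold there (-0.033 ± 0.013, adjusted p 0.063). Within the upper range, 0 of the 10 genes were called, where 0 of all genes (0%) were called by edgeR, while 6 of the 10 genes and 1149 of all genes passed at an unadjusted p under 0.05. Fits to the upper range alone by edgeR also called 0 of the 10, where 0.00566% of all genes were called.

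The values in the upper range were smaller but mostly of the same sign. Bcat2 was at -0.13 ± 0.036 (95% interval -0.20 to -0.059, adjusted p 0.24), Dbt at -0.11 ± 0.035, Ivd at -0.10 ± 0.028 (adjusted p 0.18) and Bckdhb at -0.10 ± 0.030. Bckdha was at -0.078 ± 0.030 and Hibadh at -0.042 ± 0.020. Mccc1 had the only value above 0 (0.0085 ± 0.022). The 6 genes named before it are those that passed at an unadjusted p.

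Whether the metformin difference depended on the range was tested as an interaction. It was called for 0 of the 10 genes (1.02% of all genes called), and 1 of the 10 and 2093 of all 17740 genes passed unadjusted. Ivd had the largest value, 0.068 ± 0.033 (95% interval 0.0039 to 0.13, adjusted p 0.38), and Dbt the smallest, 0.0057 ± 0.042. All 10 values lay above 0, that is, toward a smaller decrease in the upper range, with a median of 0.033 against 0.0056 for all genes. These genes vary together, so their signs are not separate observations. The 5 strains with at least 10 animals of each treatment in the upper range had 0 treated animals in the lower range. Range and strain are therefore largely not told apart in this test.

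Only 5 strains had at least 10 animals of each treatment in the upper range. In those strains, 0 of the 10 genes were called (0.0115% of all genes called), and 4 of the 10 and 1039 of 17428 genes passed unadjusted. Bcat2, Bckdhb, Dbt, Ivd and Hibadh were nonetheless lower with metformin in 5 of 5 strains, and Bckdha in 4 of 5. For Ivd in (CC051/TauUncJ x CC060/UncJ)F1, the mean was 66.97 ± 9.94 CPM (SD, n = 12) untreated and 58.4 ± 8.46 (n = 12) with metformin, both in the upper range, and 72.4 ± 6.17 (n = 12) in untreated animals of the lower range. The untreated animals of the upper range thus lay between the other groups in that strain.

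**Figure D2:**
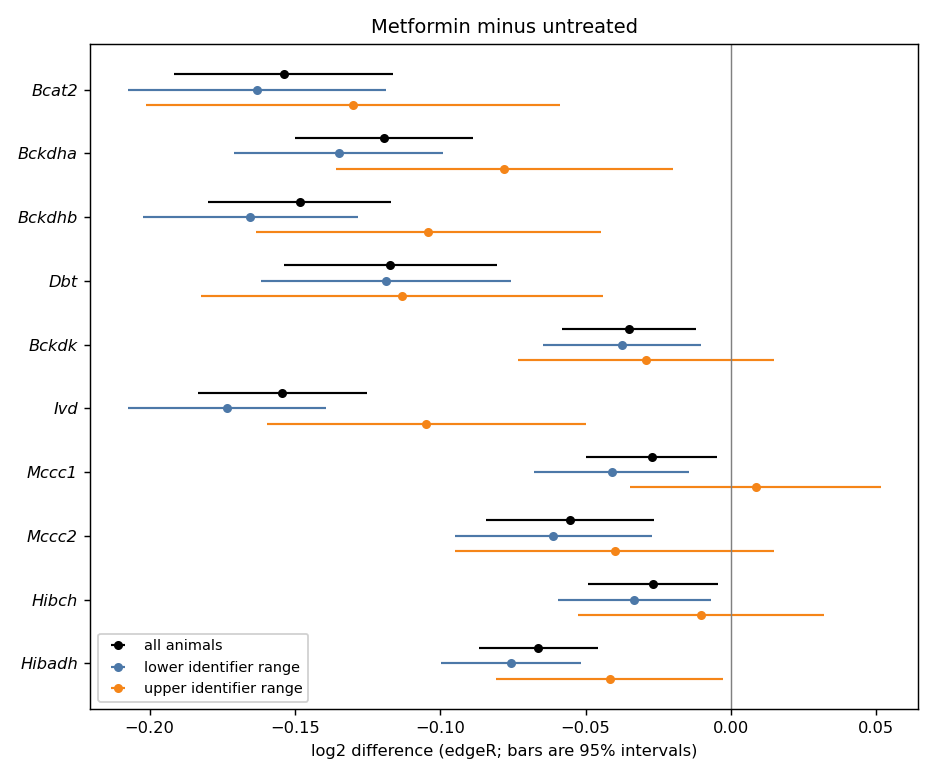
Log2 difference of metformin minus untreated for each of the 10 genes, over all animals and within each identifier range, with 95% intervals. The estimates of the lower range lie below 0 for all 10 genes, and those of the upper range lie below 0 for 9 with wider intervals.

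The ranges themselves differed in untreated animals. Of the 10 genes, 6 were called and all 6 were lower in the upper range (edgeR, 20.3% of all genes called, 9.2% called lower). Bckdha had the largest difference (log2 -0.16 ± 0.029, adjusted p 3e-06), followed by Dbt (-0.12 ± 0.034, 0.004), Ivd (-0.12 ± 0.027, 0.00043), Mccc1 (-0.10 ± 0.023, 3e-04), Bckdhb (-0.099 ± 0.030, 0.0084) and Bcat2 (-0.092 ± 0.034, 0.04). Bckdk, Mccc2, Hibch and Hibadh did not pass, and Hibch was at 0.037 ± 0.022.

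In the 4 strains with at least 10 untreated animals in each range, 5 genes were called and all were lower in the upper range (13.8% of all genes called). Bckdha (-0.21 ± 0.038) and Dbt (-0.18 ± 0.038) had the largest differences, and Bcat2 was not called (-0.098 ± 0.040, adjusted p 0.094). In (CC042/GeniUncJ x CC060/UncJ)F1, Bckdha averaged 85.4 ± 8.09 CPM (SD, n = 12) in the lower range, against 64.5 ± 6.38 (n = 10) in the other. Over all strains, 4 of 8 skeletal muscle fibre markers, 2 of 7 slow fibre, 3 of 6 fibroblast and 2 of 6 endothelial markers were lower in the upper range, and 5 of 5 erythroid, 3 of 6 macrophage, 1 of 7 adipocyte and 1 of 5 Schwann cell markers were higher. With the 5 mean marker levels in the model, 8 of the 10 genes were called lower in the upper range, with Bckdha at -0.24 ± 0.027, and Bckdk (-0.083 ± 0.021, adjusted p 9e-04) and Mccc2 (-0.11 ± 0.026, adjusted p 0.00028) joined the 6. The share of all genes called with marker levels was not counted, so the higher count is not read as a result about these genes. The part of the other markers in the result was not tested, and age and range cannot be told apart because the labels give no age.

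Diet was compared in the 469 untreated animals. More fat went with lower levels of 5 genes and higher levels of 3 (edgeR, 18.4% of 16384 genes called, 8.82% lower and 9.55% higher on 44% fat). The genes that were lower on 44% fat include the aminotransferase, subunits of the complex and leucine enzymes, while the E1 subunit Bckdha, the kinase Bckdk and the valine hydrolase Hibch were higher. The median of the 10 log2 differences was -0.048, and that of all genes was -0.0024.

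Ivd was lowest relative to 10% fat. It ranged from 44.1 to 103.2 CPM (median 72.6) on 10% fat and from 42.04 to 101.2 CPM (median 66.1) on 44% fat, with a log2 difference of -0.13 ± 0.015 (adjusted p 3.4e-14) and 72.3% of the animals on 44% fat below the median of the others. Mccc1 was at -0.076 ± 0.013 (adjusted p 1.8e-07), with medians of 24.3 and 22.7 CPM. The other carboxylase subunit, Mccc2, did not pass (-0.029, adjusted p 0.19).

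Within the complex the members moved in opposite directions. Bckdha had medians of 74.3 CPM (42.1 to 114.65) on 10% fat and 78.6 CPM (50.6 to 126) on 44% fat, a log2 difference of 0.078 ± 0.016 (adjusted p 5.1e-05). Its E1 partner Bckdhb had medians of 18.96 CPM (11.2 to 32.05) and 17.8 CPM (9.50 to 34.1), a difference of -0.076 ± 0.016 (adjusted p 0.00011). Dbt fell with Bckdhb, at -0.067 ± 0.019 (adjusted p 0.0054), and the kinase Bckdk rose with Bckdha, at 0.069 ± 0.013 (adjusted p 4.1e-06). All groups overlapped, and no member changed by more than 1 SD of its own group.

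Bcat2 was at -0.071 ± 0.019 (adjusted p 0.0027), with medians of 31.01 and 29.03 CPM. Hibch was higher on 44% fat, at 0.055 ± 0.012 (adjusted p 0.00021), with medians of 28.8 and 29.9 CPM. For Hibadh the difference was 0.0026 (adjusted p 0.92), and its sign changed with the processing.

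With metformin, the same diets gave 5 called genes, all lower on 44% fat (8.36% of all genes called): Ivd (-0.16 ± 0.023), Bckdhb (-0.15 ± 0.024), Bcat2 (-0.11 ± 0.029), Dbt (-0.095 ± 0.029) and Mccc1 (-0.087 ± 0.018). Bckdha was at 0.042 ± 0.024 (adjusted p 0.33), Bckdk at 0.027 ± 0.018 and Hibch at 0.036 ± 0.017, none of which passed. In untreated animals of the lower identifier range alone, the counts were again 3 higher and 5 lower (15.7% of all genes called). In the 69 untreated animals of the upper range alone, 1 gene was called, Ivd at -0.19 ± 0.053 (adjusted p 0.049, with 1.8% of all genes called). There 4 of the 10 and 1930 of 16600 genes passed unadjusted.

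Markers of several cell types moved with diet. All 7 adipocyte markers were called, 5 higher and 2 lower on 44% fat, with log2 differences from -0.54 to 1.195. Their sum, mostly Car3, had medians of 1199 CPM (461 to 2533) on 10% fat and 1297 CPM (524 to 2932) on 44% fat. Of the other lists, 3 of 7 slow fibre and 2 of 6 endothelial markers were higher, 3 of 6 fibroblast markers were lower, and of 8 skeletal muscle fibre markers 1 was higher and 2 were lower. With the 5 mean marker levels in the model, 9 of the 10 genes were called for diet. The 9th was Mccc2 (-0.057 ± 0.015, adjusted p 0.0016), and the log2 difference of Dbt was -0.11 ± 0.019 in place of -0.067. The share of all genes called in this fit was not counted, so the added call is not read as a result about these genes.

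Males and females were compared in untreated animals. In males, 6 of the 10 genes were lower and 2 were higher (edgeR, 65.2% of all genes called, 35.7% lower and 29.5% higher in males). The largest differences were those of Bckdhb and Dbt, which are subunits of the complex. Bckdhb ranged from 12.0 to 34.1 CPM (median 20.5) in 236 females and from 9.50 to 25.1 CPM (median 16.8) in 233 males, a log2 difference of -0.33 ± 0.016 (adjusted p 3e-61). Dbt ranged from 15.3 to 45.3 CPM (median 28.6) in females and from 10.7 to 33.9 CPM (median 23.1) in males, a difference of -0.33 ± 0.019 (adjusted p 1e-49).

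The sexes overlapped for both genes, but 219 of 233 males (93.99%) lay below the female median for Bckdhb and 87.6% for Dbt. Both carboxylase subunits were lower in males as well, Mccc1 by a log2 difference of -0.15 (adjusted p 1.1e-26) and Mccc2 by -0.13 (adjusted p 1.5e-14). Bcat2 (-0.061, adjusted p 0.003) and Ivd (-0.044, adjusted p 0.006) differed less. Bckdk was higher in males, at 0.10 ± 0.013 (adjusted p 2.5e-13), as was Hibch at 0.034 (adjusted p 0.011). Bckdha, at 0.027 (adjusted p 0.14), and Hibadh, at 0.012 (adjusted p 0.34), did not pass.

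Fibre type and fat markers also differed between the sexes. All 7 slow fibre markers were lower in males (median log2 difference -0.66), with summed medians of 2152 CPM (958 to 4249) in females and 1344 CPM (488 to 2549) in males over all animals. Of 7 adipocyte markers, 6 were lower and 1 higher in males, with summed medians of 1706 CPM (838 to 2932) and 944 CPM (461 to 2239). Of the other lists, 5 of 8 skeletal muscle fibre markers were higher and 2 lower in males, fibroblast and endothelial lists each had 2 of 6 higher and 2 of 6 lower, 2 of 5 Schwann cell markers were lower and 1 of 7 hepatocyte markers was higher. With the 5 mean marker levels in the model, Bckdhb (-0.24 ± 0.025), Dbt (-0.19 ± 0.031) and Mccc1 (-0.098 ± 0.020) were still called lower in males and Bckdk (0.10 ± 0.018) and Hibch (0.13 ± 0.019) higher. Mccc2 (-0.021, adjusted p 0.48), Bcat2 (0.0098, 0.81) and Ivd (0.052, 0.054) lost their calls, and the latter pair changed sign. Bckdha (0.085 ± 0.024, adjusted p 0.0016) and Hibadh (0.068 ± 0.017, 0.00024) were called higher in that fit, for which the share of all genes called was not counted.

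**Figure D3:**
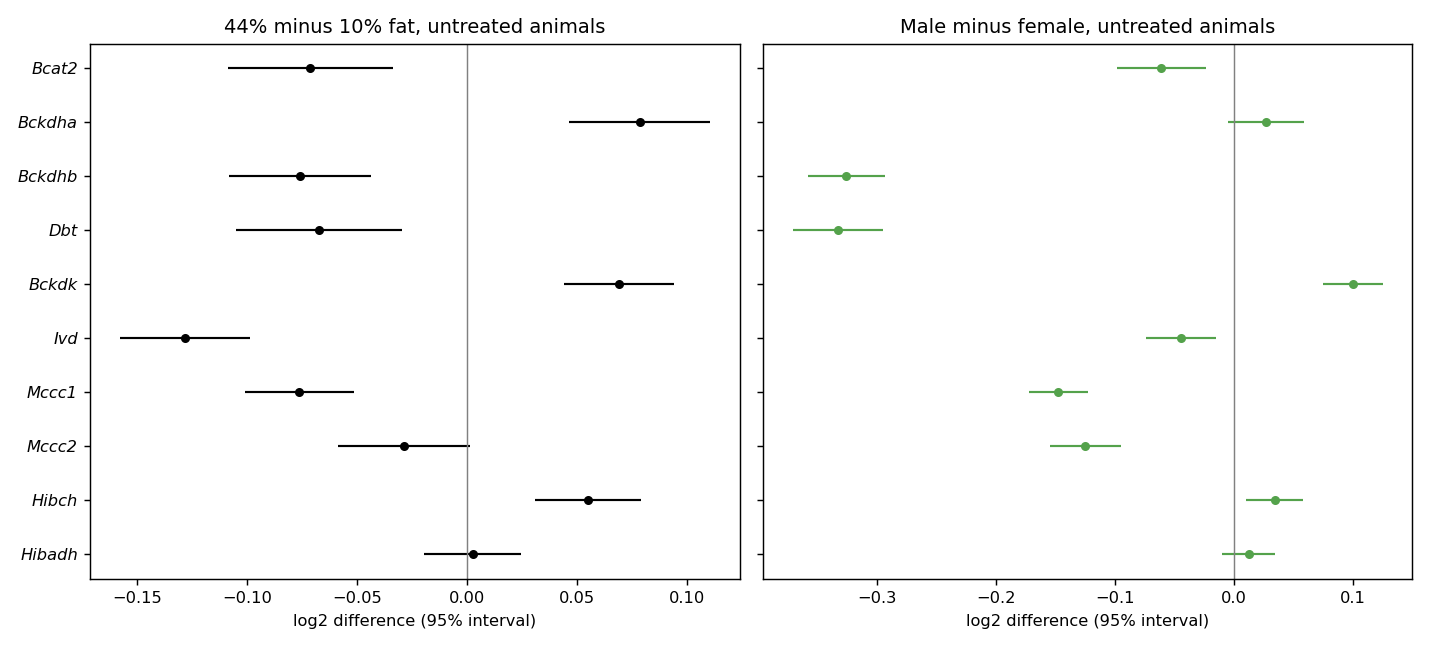
Log2 differences of the 10 genes for diet (44% minus 10% fat) and sex (males minus females) in 469 untreated animals, with 95% intervals. Bckdhb and Dbt lie farthest below 0 for sex, and Bckdha, Bckdk and Hibch lie above 0 for diet while Ivd lies farthest below it.

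The metformin difference depended on sex for 1 of the 10 genes, Dbt (interaction 0.13 ± 0.035, adjusted p 0.023, with 1.87% of all genes called). In females Dbt averaged 29.1 ± 5.24 CPM (SD, n = 236) without and 25.2 ± 4.78 with metformin. In males it averaged 23.1 ± 4.60 (n = 233) and 21.9 ± 4.10. The decrease was therefore larger in females, where the starting level was higher. For the other 9 genes the interaction did not pass, with adjusted p from 0.072 (Mccc1) to 0.75 (Bckdk).

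Strain was tested in untreated animals over all 20 strains at once. All 10 genes differed between strains, in a background where 93.2% of all genes did, with adjusted p from 3.3e-18 (Bckdha) to 1.5e-72 (Hibch). Strain took 18.98% (Bckdha) to 52.5% (Hibch) of the variance of log2 CPM, against a median of 15.3% over all genes tested. Mccc1 (45.1%) and Mccc2 (44.6%) followed Hibch. Sex took 28.4% of the variance of Bckdhb, 25.9% of Dbt and 11.8% of Mccc1, where the median gene had 1.59%. Diet took 8.29% for Ivd, with a median of 0.073% over all genes, and identifier range 5.06% for Bckdha, with a median of 0.096%.

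Between the strain with the highest and the strain with the lowest mean, the fold ran from 1.19 for Hibadh to 1.65 for Bckdhb. Bckdhb averaged 13.8 ± 0.971 CPM (SD, n = 10) in (CC009/UncJ x CC013/GeniUncJ)F1 and 22.8 ± 4.62 (n = 24) in (CC002/UncJ x CC075/UncJ)F1, and the libraries of these strains did not overlap. Apart from Mccc2 below, the other genes overlapped between their end strains. The ends were picked from these same values, and the share of all genes with such a gap was not counted. The strain lowest for Bckdhb is the one found in the upper identifier range alone, and the next lowest, (CC001/UncJ x CC042/GeniUncJ)F1, averaged 14.1 CPM. The strain of the upper range alone was also lowest for Bcat2, with 23.1 ± 5.39 CPM (n = 10) against 37.9 ± 5.12 (n = 24) in (CC043/GeniUncJ x CC011/UncJ)F1.

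The strain (CC002/UncJ x CC043/GeniUncJ)F1 had the lowest mean for 4 genes, Dbt, Ivd, Mccc1 and Mccc2. Mccc2 averaged 12.5 ± 1.63 CPM (SD, n = 24) there and 20.0 ± 1.71 (n = 24) in (CC011/UncJ x CC027/GeniUncJ)F1, again with no overlap between libraries. Ivd averaged 58.1 ± 6.90 CPM (n = 24) there and 82.3 ± 9.99 (n = 24) in (CC042/GeniUncJ x CC040/TauUncJ)F1. Bckdk and Bckdha had nearly opposite ends in (CC012/GeniUncJ x CC002/UncJ)F1, where Bckdk was at its lowest mean (84.8 ± 7.43 CPM, n = 24) and Bckdha at its highest (86.7 ± 7.68 CPM, n = 24). Hibch ran from 24.7 ± 3.19 CPM (n = 24) in (CC001/UncJ x CC042/GeniUncJ)F1 to 35.9 ± 2.34 (n = 26) in (CC004/TauUncJ x CC019/TauUncJ)F1. In the order of strain means, neighbours lay within 1 SD of each other in 19 of 19 pairs for every gene. That SD is the spread of single animals and not the error of a mean, and whether adjacent means differ was not tested.

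**Figure D4:**
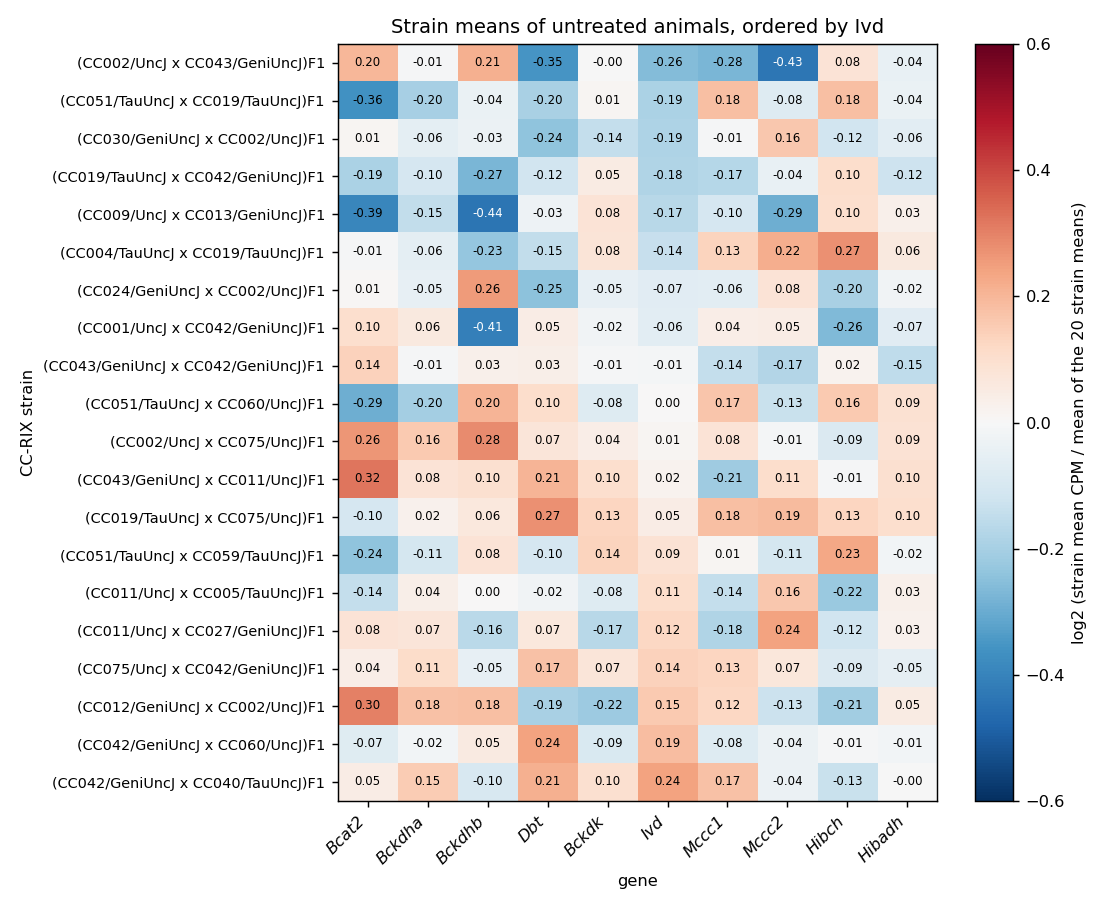
Mean level of each gene (columns) in untreated animals of each of the 20 strains (rows, ordered by Ivd), as log2 of the strain mean over the mean of the 20 strain means. Blue is low and red is high, and each gene has its own order of strains, with (CC002/UncJ x CC043/GeniUncJ)F1 lowest for Dbt, Ivd, Mccc1 and Mccc2.

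The strain means were compared between untreated and treated animals, as log2 CPM with sex and diet, but not identifier range, taken out. Strains fill the ranges unevenly, and the part of range in these correlations was not tested. Across 20 strains, the means of untreated and treated animals had Pearson's r of 0.966 for Hibch (Spearman's rho 0.974), 0.934 for Mccc1 (rho 0.944), 0.917 for Bckdhb (rho 0.865) and 0.770 for Dbt (rho 0.765). Permutation p-values of r, adjusted over the 10 genes, lay between 2e-05 and 1e-04, and those of rho, unadjusted, were 1e-05 for Hibch, Mccc1 and Bckdhb and 0.00015 for Dbt. Without the 2 strains farthest from the median, r was 0.953 for Hibch, 0.956 for Mccc1, 0.870 for Bckdhb and 0.814 for Dbt. The lowest such r was 0.670, for Bckdha.

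Metformin differences were then read within each strain, with sex and diet but not identifier range taken out. Bckdha and Bckdhb were lower with metformin in 20 of 20 strains, Bcat2 and Ivd in 19, Dbt, Mccc2 and Hibadh in 18, Mccc1 in 17, Bckdk in 15 and Hibch in 12. These counts hold range differences where a strain's treated animals lay in the upper range and part of its untreated animals in the lower. Bckdha was at -0.26 in (CC042/GeniUncJ x CC060/UncJ)F1 over both ranges and at -0.050 within the upper range. In (CC019/TauUncJ x CC042/GeniUncJ)F1 it was at -0.039 and 0.063. Within the upper range it was lower in 4 of 5 strains. The strain (CC043/GeniUncJ x CC011/UncJ)F1 had the most negative difference for 7 of the genes. There Bcat2 averaged 37.9 ± 5.12 CPM (SD, n = 24) untreated and 26.6 ± 5.17 (n = 12) with metformin, a log2 difference of -0.52, and Ivd 70.7 ± 6.56 and 54.1 ± 9.53 CPM, a difference of -0.40. In (CC024/GeniUncJ x CC002/UncJ)F1 the same genes differed little, with 30.4 ± 6.15 (n = 24) and 31.5 ± 6.01 CPM (n = 12) for Bcat2, and 66.5 ± 9.41 and 67.1 ± 10.1 CPM for Ivd.

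The interaction of metformin and strain was called for 3 of the 10 genes (8.89% of all genes called): Bcat2 (adjusted p 0.018), Mccc2 (0.036) and Dbt (0.045). Ivd was just outside (adjusted p 0.058), and Hibch was farthest from the threshold (0.92). Mccc2 was not called without the 19 libraries in doubt (adjusted p 0.056). Neither Mccc2 nor Dbt was called by limma voom (0.076 and 0.064) or on the variance-stabilised table (0.071 and 0.061), while Bcat2 passed in all 4 alternatives run for it. Age is not in the labels, so these strain values carry the same limit as the comparison over all animals.

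The sign of the diet difference was shared by most strains for some genes and not for others. On 44% fat, Ivd and Mccc1 were lower in 19 of 20 strains and Bckdhb in 18, while Bckdk was higher in 18, Bckdha in 17 and Hibch in 16. Bcat2 and Dbt were lower in 16, Mccc2 in 15, and Hibadh in 11. The interaction of diet and strain was called for 0 of the 10 genes by edgeR (3.27% of all genes called). At an unadjusted p under 0.05, 0 of the 10 and 2179 of 16384 genes passed. Limma voom also called 0.

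After strain, sex, diet, treatment and range were taken out, the genes still varied together across libraries. Of the 45 pairs among the 10 genes, 45 had a Pearson's r above 0, with a median of 0.468, and 43 passed a permutation test adjusted over the pairs. The median over all pairs of genes that averaged a log2 CPM of 1 or more was 0.0047, and over the 15 citric acid cycle genes 0.693. Within the lower range the median r of the 10 genes was 0.467, and within the upper range 0.498. All libraries share their normalisation, and this correlation is a description of how they vary.

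Bckdha and Bckdk, the subunit and the kinase that acts on it, were the closest pair, with r = 0.710 and rho = 0.670 over 703 libraries (permutation p 1e-05 for both, the smallest 100000 resamples allow). Their r was 0.704 without the 2 farthest libraries, and within the ranges it was 0.677 (lower) and 0.813 (upper). Bcat2 and Ivd were the closest pair within the lower range, with r = 0.696 and rho = 0.665 over all libraries (permutation p 1e-05 for both), 0.683 without the 2 farthest libraries, and 0.705 (lower) and 0.680 (upper) within the ranges. Bckdk was unrelated to Mccc1 (r = 0.0013 and rho = 0.015, permutation p 0.97 and 0.69) and barely related to Dbt (r = 0.072 and rho = 0.058, permutation p 0.058 and 0.13). The carboxylase partners Mccc1 and Mccc2 had r = 0.346 and rho = 0.325 (permutation p 1e-05 for both), 0.341 without the 2 farthest libraries, and 0.355 (lower) and 0.295 (upper) within the ranges.

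Ivd lay nearest to the mean of the other 9 genes (r = 0.821), followed by Bckdha (0.757) and Hibadh (0.739), and Mccc1 lay farthest (0.360). Outside the 10 genes, 10695 genes were compared with their mean over 703 libraries. The 5 most alike were Echs1 (r = 0.832), an enoyl-CoA hydratase also used in valine breakdown, Aldh4a1 (0.751), a dehydrogenase of proline breakdown, D10Jhu81e (0.739), Sdhb (0.738), a subunit of succinate dehydrogenase, and Gcdh (0.702), a dehydrogenase of lysine breakdown. Within the upper range these 5 values lay between 0.768 for Gcdh and 0.863 for Echs1.

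**Figure D5:**
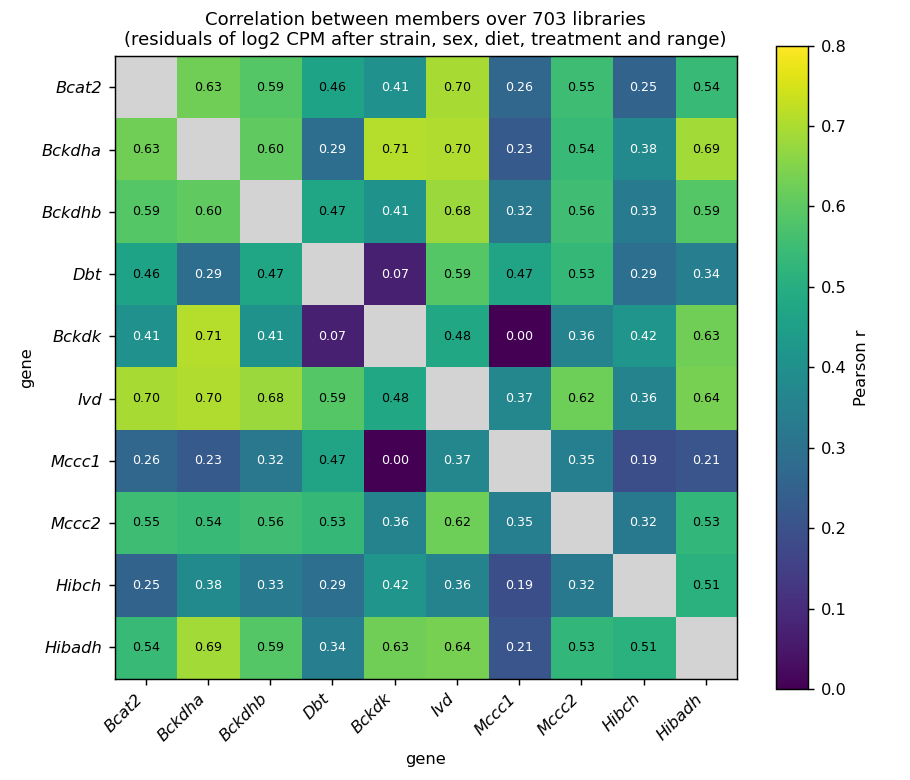
Pearson's r between each pair of the 10 genes across 703 libraries, after strain, sex, diet, treatment and identifier range were taken out. Bckdha with Bckdk is highest (0.710) and Bckdk with Mccc1 lowest (0.0013).

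Other genes of the pathway were counted for metformin in the same fit, where 16.2% of all genes were called and 9.21% were called lower. Among 17 further enzymes and regulators of branched-chain breakdown, 14 were called and all were lower with metformin, with a median log2 difference of -0.053. The phosphatase Ppm1k, which opposes Bckdk, was at -0.10 ± 0.021 (adjusted p 0.00013), and the E3 subunit Dld at -0.051 ± 0.010 (adjusted p 6.8e-05). Bcat1, the cytosolic aminotransferase, was at -0.24 ± 0.080 (adjusted p 0.025), from a mean of only 0.364 CPM.

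Of 7 transporters, 1 was higher and 2 were lower, and the mitochondrial carrier Slc25a44 was at 0.00022 ± 0.010 (adjusted p 0.99). The plasma membrane transporter Slc7a8 was at -0.25 ± 0.040 (adjusted p 1.8e-07). Of 6 genes that take up amino groups, 5 were lower, with glutamine synthetase, Glul, at -0.31 ± 0.040 (adjusted p 2.9e-11). Of 7 regulators 4 were lower, among them Klf15, a transcription factor of amino acid breakdown, at -0.13 ± 0.026 (adjusted p 6.6e-05). Of 15 citric acid cycle genes 12 were lower (median -0.038), and of 11 subunits and kinases of other 2-oxoacid dehydrogenases 4 were lower. The median of the cycle genes was nearer to 0 than that of the 10 breakdown genes. In the upper range the count was 0 in each of these lists. There 0 of all 17740 genes (0%) were called, so these counts are the background and not a result about the lists. Glul was at -0.084 ± 0.074 and Ppm1k at -0.094 ± 0.040 in that range.

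For diet in untreated animals, the lists were counted in the same way (18.4% of all genes called, 8.82% lower and 9.55% higher on 44% fat). All 15 citric acid cycle genes were higher on 44% fat (median 0.063), and 7 of 11 subunits and kinases of other 2-oxoacid dehydrogenases were higher. Of the 17 further breakdown genes, 3 were higher and 4 lower. Acat1, the thiolase of isoleucine and ketone metabolism, rose by 0.14 ± 0.012 (adjusted p 1.2e-25), Dld by 0.057 ± 0.011 (adjusted p 5.8e-06), and Ppm1k was lower at -0.075 ± 0.022 (adjusted p 0.0078). Pdk4, the kinase that switches off pyruvate dehydrogenase, rose by 0.32 ± 0.091 (adjusted p 0.005). Of 7 regulators 2 were higher and 0 lower, among them the coactivator Ppargc1b at 0.12 ± 0.034 (adjusted p 0.0049). Transporters had 1 call, amino-group acceptors 0 of 6, and Klf15 (0.043 ± 0.027), Slc25a44 (-0.019 ± 0.012) and Bcat1 (0.031 ± 0.088) did not pass. The kinase of the pathway was thus higher and its phosphatase lower on 44% fat, at the level of RNA.

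Between the sexes, 65.2% of all genes were called, 35.7% lower and 29.5% higher in males. Of the 17 further breakdown genes, 8 were lower and 8 higher in males, and 13 of 15 cycle genes were higher. Dld was higher in males (0.12 ± 0.011, adjusted p 2.5e-25) while Dbt and Bckdhb, which bind in the same complex, were lower. Ppm1k was lower in males (-0.12 ± 0.022, adjusted p 4.3e-07), opposite to Bckdk, and Klf15 was lower too (-0.15 ± 0.027, adjusted p 4.2e-07).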

How the data were processed

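Gastrocnemius RNA was sequenced by the authors as polyadenylated libraries of 100 bp read pairs. Reads were divided between transcripts of the founder genomes by expectation maximisation, and the deposited expected counts per gene, given as whole numbers, were used as they are, so levels of near-identical copies depend on that division. The second table deposited by the authors holds variance-stabilised values of those genes, made with DESeq2, and served only as another scale. Per the labels' processing notes the build is GRCm38.

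Levels are CPM with TMM factors. Tests used edgeR 4.0.16 in R 4.3.3 (quasi-likelihood F tests, filterByExpr, Benjamini-Hochberg adjustment over all genes tested, called under 0.05), with strain, sex, diet, treatment and identifier range as terms. Contrasts within a diet or range came from a model with that interaction. Variance shares are omega squared and correlations use residuals, both on log2 CPM with a prior count of 2, with 100000 permutations. Alternatives used DESeq2 1.42.0, limma 3.58.1, other filters, marker levels as covariates (as mean log2(CPM + 1) per list, added after the data were seen) and subsets of libraries. The self-test on simulated counts was run on the same model. Every library is numbered as replicate 1 of its label, and p-values measure the spread between libraries, read as animals. The 10 genes, the marker and pathway lists and the rule for named genes were chosen with earlier results of these data known. By that rule, all 10 were named, with the 3 called list genes of largest change for metformin and for diet, 5 further genes of the pathway, and the 5 genes most alike.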

Additional observations from a re-analysis of the deposited data

Results flagged for a closer look

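The metformin difference of Dbt, the E2 core of the branched-chain dehydrogenase, depended on sex, with a tested interaction of 0.13 on the log2 scale (edgeR, adjusted p 0.023). It passed under all 4 alternatives run for it, with adjusted p from 0.01 to 0.022.

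The size of the metformin difference varied between the 20 strains for Bcat2 (edgeR, adjusted p of the interaction 0.018), Mccc2 (0.036) and Dbt (0.045). Under the 4 alternatives, the adjusted p lay between 0.0076 and 0.028 for Bcat2, between 0.021 and 0.076 for Mccc2 and between 0.031 and 0.064 for Dbt.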

How the results depend on the processing

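Of the 10 genes, 8 were called for metformin (16.2% of all genes called). The count was 0 in the upper identifier range alone (0.00566% of all genes called). It was also 0 in that range's strains with at least 10 animals of each treatment (0.0115% of all genes called). Fewer animals entered these fits, and both counts are the background and not a result about these genes. The count was 6 in strains of the lower range with at least 10 animals of each treatment (15.4% of all genes called), and 7 to 9 in the other alternatives. For diet, 8 genes were called (18.4% of all genes called), against 1 in the upper range alone (1.8% of all genes called). Leaving out each strain in turn (20 fits) gave 7 to 9 genes for metformin and 8 to 8 for diet. Bckdk lost its metformin call in 8 of those 20 fits and in 5 of 16 others. Mccc1 gained one without the range term (adjusted p 0.0016), in the lower range alone (0.033), and in 2 of the 20 fits, without (CC002/UncJ x CC043/GeniUncJ)F1 (0.0304) and without (CC042/GeniUncJ x CC060/UncJ)F1 (0.0424). The interaction of metformin and strain was called for 3 genes, against 1 with limma voom, and that of metformin and sex for 1, against 2 when only genes averaging 5 CPM were tested, the other being Mccc1 (adjusted p 0.038). The cause of these changes was not tested. Differences near 0 changed sign: Mccc1 with metformin in the upper range (0.0057) and its 5 strains (0.0053), Hibch with diet in the upper range (-0.0061), and Hibadh with diet with that filter (-0.00097), with marker sums (-0.0019), with mean marker levels (-0.0084), in the upper range (-0.019), without the libraries in doubt (-0.00057) and in 8 of 20 fits without a strain (-0.0049 to 0.0073 over the 20). No paired analysis was possible because replicate numbers are 1 for every library and pair nothing. The count of called genes for strain, sex, range and the other interactions stayed within 1.5 times of the value given, but the genes called for sex and range changed with mean marker levels.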
